A study of Mus musculus with 6 samples.

Results

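The mitochondrial chromosome of the mouse carries 37 genes, and all 37 were taken, from the 56748 genes of the deposited count table, by the single criterion that the table places them on chromosome MT. They comprise 13 protein-coding genes, 2 rRNA genes and 22 tRNA genes. Their RNA was compared between 3 libraries from mice given PLEA nanoparticles and 3 libraries from mice given saline. Every animal was a male wild-type C57 mouse with a photochemically induced stroke of the left hemisphere, made by laser light (532 nm, 250 mW, 1.5 mm wide, 5 minutes) and an intravenous dose of 100 mg/kg of an agent that the labels do not name. PLEA nanoparticles or saline (100 µL) followed 2 hours later through the tail vein, and infarct cortex was sampled at day 3. The labels do not spell out PLEA, and they do not say whether the libraries of a group came from separate mice, so the p-values measure the spread between these libraries, which may be technical. Both groups carried the lesion and no unlesioned tissue was analysed here.

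The mitochondrial genome encodes a small set of membrane subunits of the respiratory chain and the ATP synthase, and the rRNAs and tRNAs with which mitochondria translate them. Both strands are transcribed as long precursors that run through many genes, and the tRNAs that punctuate the precursors are cut out to release the mRNAs and rRNAs. In the brain, where neurons depend heavily on oxidative phosphorylation, mitochondrial transcripts are among the most abundant RNAs. Because neighbouring genes share a precursor, their levels are not independent of each other.

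Library totals ran from 16810448 to 17516434 counts. Summed markers of excitatory cortical neurons lay between 3577 and 4937 CPM in PLEA and between 3076 and 5264 CPM in saline, where CPM is the usual scaling of counts to library size, here with TMM factors. Markers of striatum ranged from 1046 to 2248 CPM in PLEA and from 239.5 to 2283 CPM in saline, with saline replicate 2 far below the other 5 libraries. Choroid plexus markers summed to 333.1 CPM in PLEA replicate 3, against 37.9 CPM or less in the other 5 libraries.

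Mitochondrial genes were among the most abundant in the tissue. The gene mt-Co1, the catalytic core of cytochrome c oxidase (complex IV), ranked first of all genes by mean CPM, and 7 of the 10 most abundant genes were mitochondrial. The chromosome as a whole held 4.17%, 4.98% and 4.03% of all counts in PLEA replicates 1 to 3, against 7.01%, 4.66% and 5.61% in saline replicates 1 to 3. The groups overlapped, because PLEA replicate 2 lay above saline replicate 2. The mean was 4.39% ± 0.513 in PLEA and 5.76% ± 1.18 in saline (SD, n = 3 each), a difference of -1.37 percentage points (two-sided exact permutation p = 0.2; the design allows no p under 0.1). Saline replicate 1 was the highest library, and without it the difference was -0.741 percentage points (exact permutation p of 0.3). In bulk tissue, fewer cells of a type that is rich in mitochondria cannot be told apart from less mitochondrial RNA per cell.

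**Figure D1:**
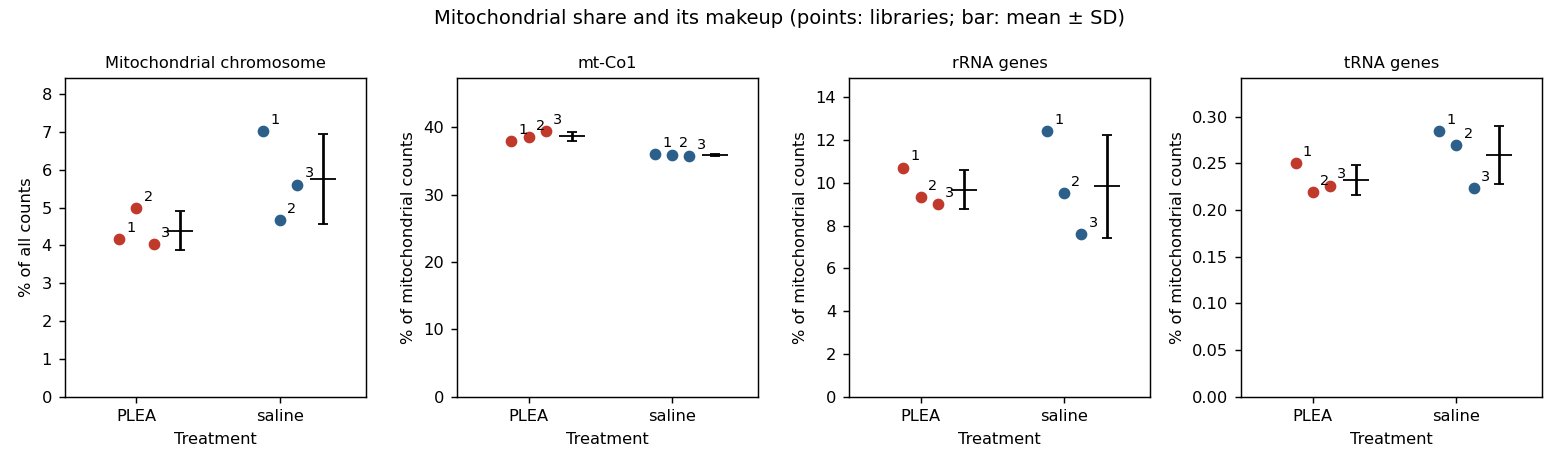
Share of all counts on the mitochondrial chromosome (first panel) and shares of the mitochondrial counts held by mt-Co1, rRNA genes and tRNA genes, in percent, for 3 PLEA and 3 saline libraries (points, labelled by replicate number; the bar is the mean ± SD). The mt-Co1 share lies between 38.0% and 39.4% in PLEA and between 35.7% and 36.04% in saline, whereas the groups overlap in the other panels.

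Within the mitochondrial counts, the shares of the RNA classes overlapped between the groups. The rRNA genes held 9.69% ± 0.899 of mitochondrial counts in PLEA and 9.84% ± 2.42 in saline (SD, n = 3 each, two-sided exact permutation p of 0.9). The tRNA genes held 0.232% ± 0.0163 in PLEA and 0.259% ± 0.0316 in saline (exact permutation p of 0.3). Saline replicate 1 had the highest rRNA share, at 12.4%, and saline replicate 3 the lowest, at 7.59%, so the saline libraries differed more from each other than the group means did. The single gene mt-Co1 held 38.0%, 38.6% and 39.4% of mitochondrial counts in PLEA, against 36.04%, 35.9% and 35.7% in saline. These shares did not overlap between the groups, a feature picked out after the values were seen and therefore not tested. The reverse order was seen for mt-Nd1, mt-Nd3, mt-Nd4l, mt-Tn and mt-Nd2. The last of these held 7.21%, 6.35% and 6.73% in PLEA, against 7.33%, 7.88% and 8.83% in saline.

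Levels per length of gene differed widely along the chromosome, in a pattern shared by both groups. The 7 protein-coding genes outside the stretch from mt-Co2 to mt-Nd4l averaged between 2341 and 12213 CPM per kb over the 6 libraries, with mt-Nd4 the lowest and mt-Co1 the highest. The 6 protein-coding genes inside that stretch (mt-Co2, mt-Atp8, mt-Atp6, mt-Co3, mt-Nd3 and mt-Nd4l) averaged between 67.9 and 194.8 CPM per kb. The lowest of the first set was thus 12.0 times the highest of the second on the scale of CPM per kb. The rRNA genes mt-Rnr1 (12S) and mt-Rnr2 (16S), which form the cores of the small and large mitochondrial ribosomal subunits, stood at 1917 and 2023 CPM per kb. The libraries were made for mRNA, so these levels and the rRNA share need not give the proportion of rRNA in the tissue.

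**Figure D2:**
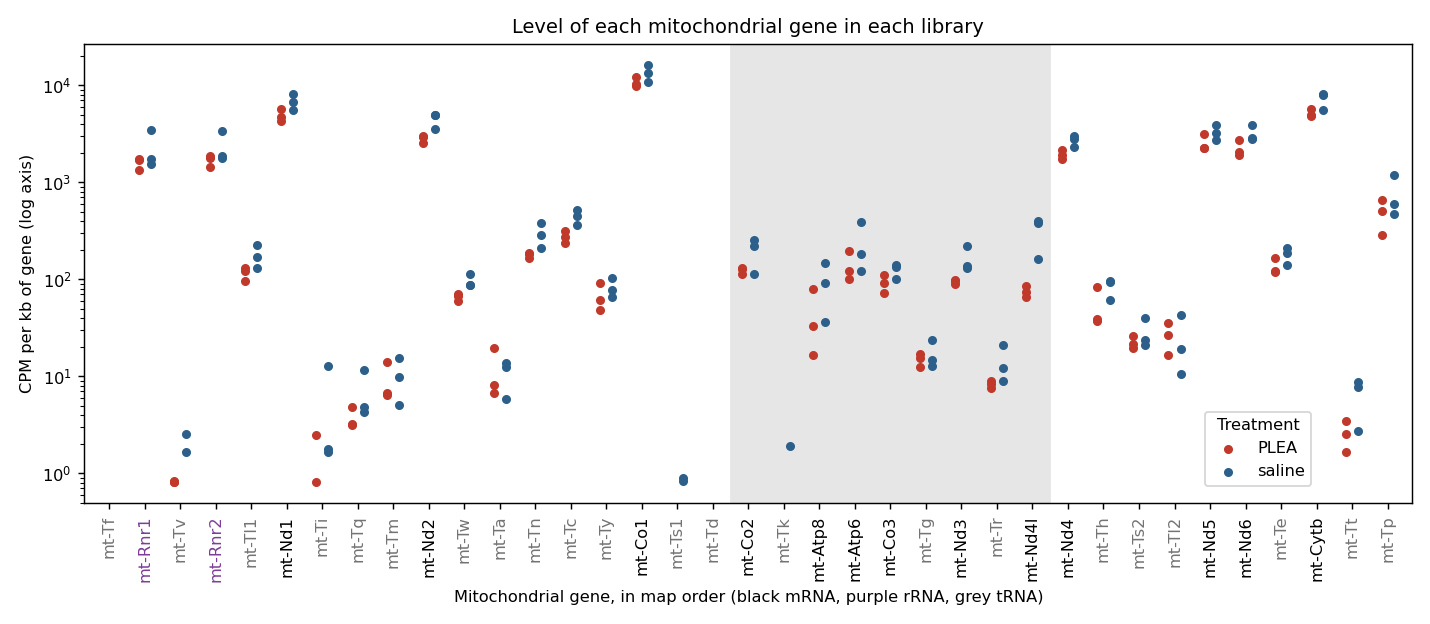
Level of each of the 37 mitochondrial genes in CPM per kb of gene (log axis), with genes in map order and 1 point per library; values of 0 cannot be drawn on a log axis and are left out. The 6 protein-coding genes on the shaded stretch from mt-Co2 to mt-Nd4l lie between 67.9 and 194.8 CPM per kb on average, and the other 7 between 2341 and 12213.

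This stretch has a near-identical copy in the nuclear genome. A search of the GENCODE M21 transcripts of the nuclear chromosomes (identity of at least 99% over at least 100 bases) found 7 copies, all unprocessed pseudogenes on chromosome 1, which lie next to each other between bases 24650616 and 24655278 as the deposited table numbers them. Gm28661 matched 681 of the 684 bases of mt-Co2, Gm10925 678 of 681 bases of mt-Atp6, Gm28437 783 of 784 bases of mt-Co3 and Gm10222 294 of 297 bases of mt-Nd4l, each with an identity of 100%. Gm28438 matched 345 of 348 bases of mt-Nd3 with 1 substitution, T3C (the mt-Nd3 base first, positions counted from 1 at its first base). The copy ended inside the genes at either end of the stretch, where Gm29216 matched 31.3% of mt-Co1 and Gm28439 matched 63.6% of mt-Nd4. The gene mt-Atp8 had no hit of that length, although it lies between copied genes and its last 43 bases overlap mt-Atp6. The tRNA genes are all shorter than 100 bases, so the search could not report a copy of any. Of these, mt-Ts1, mt-Td, mt-Tk, mt-Tg and mt-Tr lie between copied genes.

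The sequences of 2 short genes of this stretch, mt-Nd4l and mt-Atp8, which had the largest fold changes of the mRNAs, are shown from GENCODE M21 (GRCm38, plus strand of chromosome MT). The capitals mark the bases of mt-Nd4l that overlap mt-Nd4 and the bases of mt-Atp8 that overlap mt-Atp6.
mt-Nd4l: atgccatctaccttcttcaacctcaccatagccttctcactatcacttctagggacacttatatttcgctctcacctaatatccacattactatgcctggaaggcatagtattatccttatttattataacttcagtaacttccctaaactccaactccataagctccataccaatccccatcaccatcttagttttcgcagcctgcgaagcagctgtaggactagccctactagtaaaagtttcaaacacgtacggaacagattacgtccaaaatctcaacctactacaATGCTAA
mt-Atp8: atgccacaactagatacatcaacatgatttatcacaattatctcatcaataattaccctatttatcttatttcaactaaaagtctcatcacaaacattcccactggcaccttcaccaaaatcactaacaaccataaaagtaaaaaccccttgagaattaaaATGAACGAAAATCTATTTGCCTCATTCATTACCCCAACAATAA

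The copies carried counts of their own, from 0.754% to 0.836% of the mitochondrial counts in PLEA and from 0.717% to 0.982% in saline. For mt-Atp6 the counts of gene and copy were of similar size. Gm10925 had 1837, 2256 and 1852 counts in PLEA and 3452, 2080 and 3210 in saline, beside 2286, 1466 and 1216 counts in PLEA and 2112, 1440 and 4329 in saline for mt-Atp6. How the authors' counting treated reads that match both places is not given in the sources used here. Counts of mt-Co2, mt-Atp6, mt-Co3, mt-Nd3 and mt-Nd4l are therefore uncertain, as are the copied parts of mt-Co1 and mt-Nd4. The same holds for the 43 bases that mt-Atp8 shares with mt-Atp6. On chromosome 1, Gm10925 ends at base 24653732 and Gm28661 starts at base 24653966. This leaves the same space as between the matched parts of mt-Co2 and mt-Atp6 on chromosome MT, where mt-Tk and mt-Atp8 lie. The copy thus has room for the rest of mt-Atp8, but the sequence there was not compared, because only annotated transcripts were searched. The 7 copies had log2 fold changes (PLEA over saline) from -1.44 to -0.35, with a median of -0.61 and edgeR adjusted p from 0.818 to 0.832. The groups overlapped for every copy. Gm10222 was at -0.68 (SE 0.27), with 306, 299 and 222 counts in PLEA, against 504, 268 and 492 in saline. Gm28438 was at -1.44 (SE 0.48), with 88, 79 and 64 counts in PLEA, against 331, 71 and 199 in saline.

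No mitochondrial gene passed the test between PLEA and saline over all genes (edgeR quasi-likelihood test, adjusted p under 0.05). This need not mean that none differed, because in a simulation only 3% of genes with a 1.5-fold difference were found. The test called 0 of 29 tested mitochondrial genes in either direction, and 0 of 17584 tested genes overall (0% called higher and 0% called lower). DESeq2 called 2 of the 29 lower and 0 higher, mt-Nd4l and mt-Nd2, and gave mt-Tm, mt-Ta, mt-Tg and mt-Tr no adjusted p. Of the 15524 genes to which it gave one, it called 0.238% lower and 0.0258% higher. Without the filter on low counts edgeR called mt-Nd4l lower, beside 0.0907% of all genes lower and 0.0205% higher, and limma voom called 0 in either direction. All 13 protein-coding and both rRNA genes had log2 fold changes below 0, with a median of -0.50, beside a median of -0.01 over all genes tested, of which 51.0% were below 0. Each of these 15 genes was over the expression filter in all 6 libraries. Of the 15, 9 had an unadjusted edgeR p under 0.05 with a lower level in PLEA, beside 3.58% of all tested genes, and 0 had one with a higher level, beside 2.28%. The 3 PLEA libraries lay below the 3 saline libraries for 5 of the 15 (mt-Nd2, mt-Nd3, mt-Nd4l, mt-Nd4 and mt-Nd6), beside 5.54% of all tested genes, and above them for 0. Since these RNAs come from shared precursors, the 15 values do not count as 15 separate observations. PLEA replicate 3 was the lowest library for 13 of the 15 genes, and the highest was saline replicate 1 for 8 and saline replicate 3 for 7.

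**Figure D3:**
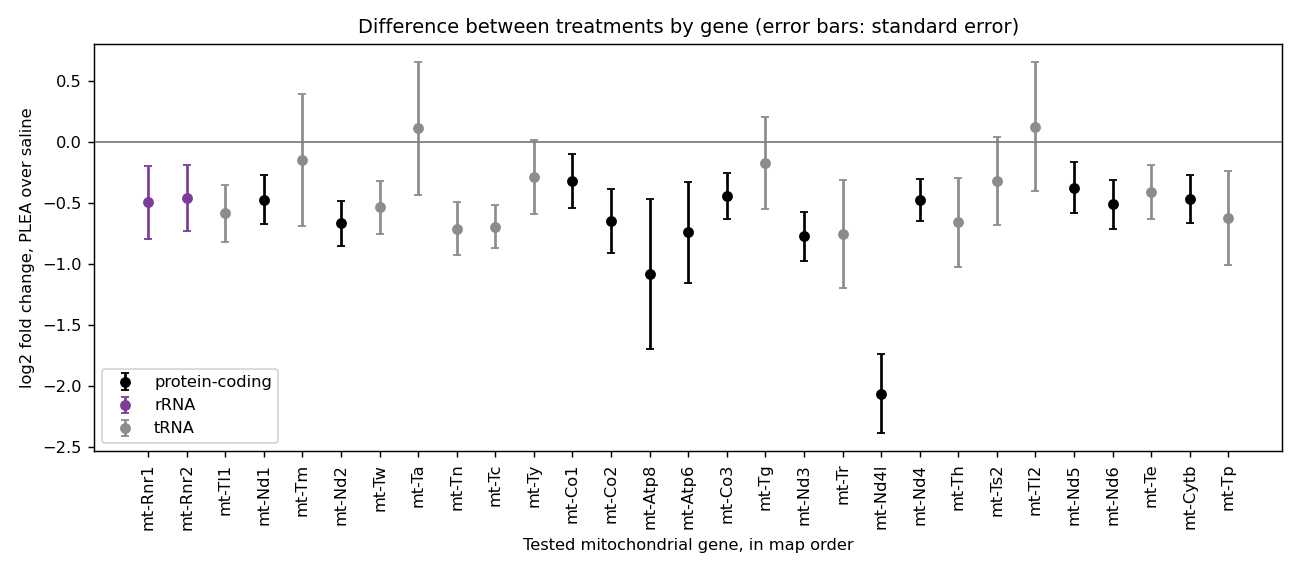
The log2 fold change, PLEA over saline, of the 29 tested mitochondrial genes in map order (points; error bars are standard errors; colours give the RNA class). All protein-coding and rRNA genes lie below 0, mt-Nd4l stands lowest at -2.06, and the points above 0 are the tRNA genes mt-Ta and mt-Tl2.

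The subunits of complex I, which takes electrons from NADH, are encoded by 7 of the genes. Of these 7, 6 had an unadjusted p under 0.05 with lower levels in PLEA, beside 3.58% of all tested genes, and 5 lay wholly below saline, beside 5.54%. The gene mt-Nd2 (chromosome MT, bases 3914 to 4951, plus strand), a proton-pumping subunit with no near-identical copy found, was at 3038, 3126 and 2630 CPM in PLEA, against 5117, 3719 and 5125 CPM in saline. Every PLEA library was under every saline library, and the log2 fold change was -0.67 (SE 0.19, edgeR adjusted p = 0.818). DESeq2 gave mt-Nd2 an adjusted p of 0.0347, and over all settings run the adjusted p ranged from 0.0347 to 1.0. For the larger proton-pumping subunits the log2 fold change was -0.48 (SE 0.17) at mt-Nd4 and -0.38 (SE 0.21) at mt-Nd5. All PLEA libraries were lower for mt-Nd4, with 2672, 2993 and 2418 CPM in PLEA, against 4196, 3181 and 3897 CPM in saline. For mt-Nd5 the groups overlapped, with 4134, 5690 and 4086 CPM in PLEA and 7162, 5050 and 5835 CPM in saline. The subunit gene mt-Nd1, which forms part of the quinone site, averaged 4699 ± 684 CPM in PLEA and 6526 ± 1194 CPM in saline (SD, n = 3 each).

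Among the short complex I genes, mt-Nd3 (bases 9459 to 9806, plus strand) was at 33.1, 34.4 and 31.4 CPM in PLEA, against 76.0, 45.5 and 47.5 CPM in saline. The PLEA libraries were tight and all lower, and the log2 fold change was -0.77 (SE 0.20, edgeR adjusted p = 0.818), or -0.49 without saline replicate 1. Adding the counts of Gm28438 gave -0.87 (SE 0.23, edgeR adjusted p = 0.818).

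The largest difference was that of mt-Nd4l (bases 9877 to 10173, plus strand), which encodes a small membrane subunit of complex I. It was at 19.4, 25.4 and 22.2 CPM in PLEA, against 47.8, 113.8 and 118.6 CPM in saline. All PLEA libraries lay below all saline libraries. Here saline replicate 1 was the lowest of its group, although it led for 8 of the 15 mRNA and rRNA genes. The log2 fold change was -2.06 (SE 0.32, edgeR adjusted p = 0.574), the fourth smallest p of the 17584 tested genes. DESeq2 gave it an adjusted p of 1.6e-07 and edgeR without saline replicate 1 gave 0.00339, and over all settings run its adjusted p ranged from 1.6e-07 to 1.0. As shown above, only the last 3 of its 297 bases are absent from the match with Gm10222. With the counts of Gm10222 added, the sums were 641, 747 and 620 counts in PLEA, against 1318, 2236 and 2419 in saline, and the log2 fold change was -1.64 (SE 0.23, edgeR adjusted p = 0.506). Relative to the mitochondrial total instead of the whole library, a scale chosen after seeing the data, it was -1.73 (edgeR adjusted p = 0.0526).

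In mammalian mitochondria mt-Nd4l and mt-Nd4 stay together on 1 mRNA, with reading frames that overlap by 7 bases, and so do mt-Atp8 and mt-Atp6, which overlap by 43 bases. Per kb, the counts of mt-Nd4l came to 3.36%, 3.94% and 4.27% of those of mt-Nd4 in PLEA, against 5.28%, 16.6% and 14.1% in saline. The groups did not overlap, and saline replicate 1 lay nearer to the PLEA libraries than to the other saline libraries. The mean log2 ratio was -4.70 ± 0.176 in PLEA and -3.22 ± 0.894 in saline (SD, n = 3 each), a difference of -1.48 with a two-sided exact permutation p of 0.1, the floor of this design. With Gm10222 counts added to mt-Nd4l, but none of Gm28439 to mt-Nd4, the difference was -1.12 (exact permutation p of 0.1). For the other pair, the difference in the log2 ratio of mt-Atp8 to mt-Atp6 was -0.53 (exact permutation p of 0.5), with PLEA replicate 2 above all other libraries and PLEA replicates 1 and 3 below them. This difference was -1.18 without PLEA replicate 2 and -0.191 without PLEA replicate 3. Both ratios carry the uncertainty from the nuclear copies given above. The copy matched 294 of the 297 bases of mt-Nd4l but only 63.6% of mt-Nd4. Reads that match both places therefore bear unequally on these 2 genes, and the ratio need not give the balance of their RNA.

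**Figure D4:**
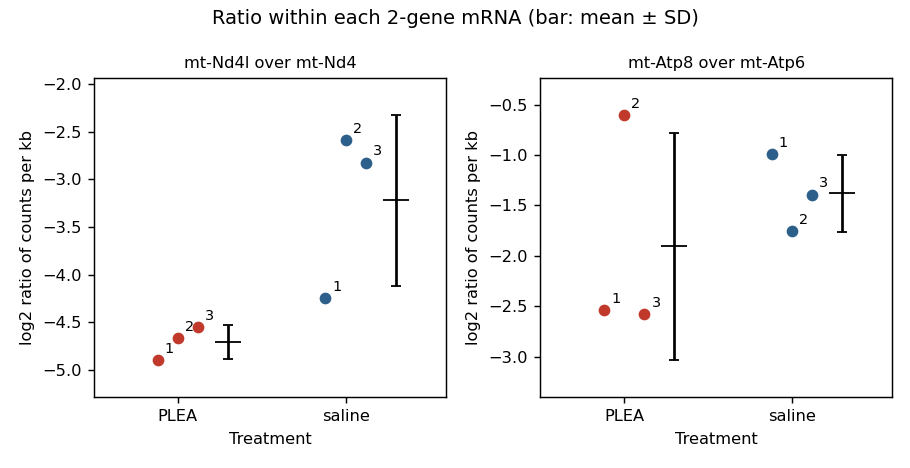
Log2 ratio of counts per kb of mt-Nd4l over mt-Nd4 and of mt-Atp8 over mt-Atp6 in the 3 PLEA and 3 saline libraries (points, labelled by replicate number; the bar is the mean ± SD). The PLEA libraries lie between -4.90 and -4.55 in the first panel, below all saline libraries, and spread on both sides of the saline libraries in the second.

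The remaining complex I gene, mt-Nd6, is the only mRNA on the minus strand (bases 13552 to 14070). It was at 1071, 1421 and 1004 CPM in PLEA, against 2043, 1484 and 1460 CPM in saline, a log2 fold change of -0.51 (SE 0.20, edgeR adjusted p = 0.818). The groups did not overlap, though PLEA replicate 2 was close to the lower saline libraries, and without saline replicate 1 the log2 fold change was -0.33. Whether reads were counted by strand is not given in the sources used here, so reads of mt-Nd6 cannot be told apart from reads of the plus-strand precursor, and its end overlaps mt-Nd5 by 14 bases. Genes on the minus strand, mt-Nd6 with 8 tRNA genes, held 2.85% ± 0.186 of mitochondrial counts in PLEA and 3.07% ± 0.345 in saline (SD, n = 3 each, two-sided exact permutation p of 0.4).

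Complexes III and IV are represented by 1 and 3 genes. The gene mt-Cytb, the mitochondrial subunit of the cytochrome bc1 complex, was at 5705, 6548 and 5586 CPM in PLEA, against 9029, 6402 and 9267 CPM in saline, a log2 fold change of -0.47 (SE 0.20). Groups overlapped, with saline replicate 2 under PLEA replicate 2. The gene mt-Co1 (bases 5328 to 6872) was at 16000, 18987 and 15394 CPM in PLEA, against 25180, 16949 and 20704 CPM in saline, and its log2 fold change of -0.32 (SE 0.22) was the closest to 0 of the 13 protein-coding genes. It was -0.16 without saline replicate 1. Relative to the mitochondrial total, a scale on which the median of all tested genes was 0.39, mt-Co1 turned to 0.11 and mt-Nd5 to 0.04. The copper-binding subunit gene mt-Co2 had 88.5, 88.8 and 78.4 CPM in PLEA, against 150.7, 77.5 and 173.6 CPM in saline, so saline replicate 2 was the lowest of all 6. The third core subunit gene, mt-Co3, averaged 71.9 ± 15.7 CPM in PLEA and 97.96 ± 16.5 CPM in saline (SD, n = 3 each). EdgeR adjusted p was 0.818 for mt-Cytb, mt-Co2 and mt-Co3.

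The ATP synthase genes had the largest standard errors of the mRNAs. The proton channel subunit gene mt-Atp6 was at 132.1, 83.1 and 68.0 CPM in PLEA, against 123.9, 83.2 and 266.4 CPM in saline, giving -0.74 on the log2 scale (SE 0.41). The stator subunit gene mt-Atp8 was at 6.82, 16.4 and 3.41 CPM in PLEA, against 18.7, 7.40 and 30.4 CPM in saline, giving -1.08 on the log2 scale (SE 0.61). Groups overlapped for both genes, and both peaked in saline replicate 3. Without that library the values were -0.15 for mt-Atp6 and -0.57 for mt-Atp8, and without PLEA replicate 2 the value for mt-Atp8 was -1.88.

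Both rRNA genes were highest in saline replicate 1. The 12S gene mt-Rnr1 was at 1659, 1628 and 1272 CPM in PLEA, against 3285, 1676 and 1467 CPM in saline. The 16S gene mt-Rnr2 was at 2853, 2964 and 2256 CPM in PLEA, against 5379, 2817 and 2935 CPM in saline. The other 5 libraries overlapped between the groups, with fold changes on the log2 scale of -0.50 (SE 0.30) for mt-Rnr1 and -0.46 (SE 0.27) for mt-Rnr2. Without saline replicate 1 these were -0.04 for mt-Rnr1 and -0.09 for mt-Rnr2.

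The tRNA genes received 13008 counts over the 6 libraries, and 64.8% of these lay on the 3 genes mt-Tp, mt-Tc and mt-Tn, all on the minus strand. The 8 minus-strand tRNA genes together took 78.3% of tRNA counts. As for mt-Nd6, the strand setting is not given, so their reads cannot be told apart from reads of the plus-strand precursor. At the other end of the counts, mt-Tf and mt-Td had 0 counts in every library, which allows up to 3 counts per library or 0.168 to 0.185 CPM. The genes mt-Tk and mt-Ts1 had 2 counts each over the 6 libraries. Of these genes, mt-Td, mt-Tk and mt-Ts1 lie between genes with a nuclear copy, and whether they are copied was not tested. Their low counts therefore need not mean little RNA. The sequences of the 3 most counted genes and of mt-Tf, mt-Td and mt-Tk are shown to set these genes of similar length side by side, with the anticodon in capitals (GENCODE M21, GRCm38, chromosome MT, each read along its own strand).
mt-Tp: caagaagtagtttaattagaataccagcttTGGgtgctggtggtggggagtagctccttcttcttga
mt-Tc: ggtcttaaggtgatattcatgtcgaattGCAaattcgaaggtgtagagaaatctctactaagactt
mt-Tn: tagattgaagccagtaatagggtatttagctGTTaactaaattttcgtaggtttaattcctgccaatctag
mt-Tf: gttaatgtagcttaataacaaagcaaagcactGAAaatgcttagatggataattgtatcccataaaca
mt-Td: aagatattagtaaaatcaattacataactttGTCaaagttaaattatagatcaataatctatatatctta
mt-Tk: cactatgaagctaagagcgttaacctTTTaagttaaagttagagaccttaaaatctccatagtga

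These counts are reads assigned to tRNA genes in a library made for mRNA, so they need not come from mature tRNAs. Of the 22 tRNA genes, 14 were tested and 8 were under the filter on low counts. The filter was passed in all 6 libraries by 11, and 10 of these 11 had log2 fold changes below 0, beside 51.0% of all tested genes. Of the 11, 3 lay wholly below saline (mt-Tw, mt-Tn and mt-Tc), beside 5.54% of all tested genes. The cysteine tRNA gene mt-Tc (bases 5192 to 5257) was at 18.0, 15.5 and 20.6 CPM in PLEA, against 34.3, 29.7 and 23.8 CPM in saline, a log2 fold change of -0.70 (SE 0.17, edgeR adjusted p = 0.818). The asparagine tRNA gene mt-Tn (bases 5089 to 5159) was at 12.8, 13.4 and 11.8 CPM in PLEA, against 27.2, 14.9 and 20.2 CPM in saline, a log2 fold change of -0.71 (SE 0.22, edgeR adjusted p = 0.818), or -0.46 without saline replicate 1. Both lie in the cluster of tRNA genes where synthesis of the light strand of the genome starts. The proline gene mt-Tp, at the end of the map beside the control region, ranged from 19.1 to 44.5 CPM in PLEA and from 31.9 to 79.0 CPM in saline, so its groups overlapped. Its log2 fold change was -0.63 (SE 0.38), or -0.13 without saline replicate 1.

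The other tRNA genes tested at over 5 CPM in some library, mt-Tl1 (leucine), mt-Te (glutamate), mt-Tw (tryptophan), mt-Ty (tyrosine) and mt-Th (histidine), had log2 fold changes from -0.66 to -0.29. Of these, mt-Tw did not overlap, at 4.02 to 4.74 CPM in PLEA and 5.84 to 7.57 CPM in saline. The largest p-values of all tested mitochondrial genes were those of mt-Ta (alanine) and mt-Tl2 (leucine), with 7 to 24 and 13 to 52 counts per library. On the log2 scale mt-Ta differed by 0.11 (SE 0.54, edgeR adjusted p = 0.982) and mt-Tl2 by 0.12 (SE 0.53, edgeR adjusted p = 0.976). For mt-Ta the value rests on PLEA replicate 3, which had 24 counts, and was -0.505 without it. The genes mt-Tr, mt-Tm, mt-Tg and mt-Ts2 stayed under 2.5 CPM in every library, and mt-Tr was over the filter in 1 PLEA library and in 3 saline libraries. In CPM the groups of mt-Tr just failed to overlap, with 0.6149 in PLEA replicate 3 and 0.6155 in saline replicate 3. Its counts overlapped, with 9, 10 and 11 in PLEA, against 14, 25 and 10 in saline. Of the 8 genes not tested, mt-Tv, mt-Ti, mt-Tq and mt-Tt (valine, isoleucine, glutamine and threonine) had 0 to 6 counts per PLEA library and 0 to 15 per saline library, and the others were mt-Tf, mt-Td, mt-Tk and mt-Ts1.

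The nuclear genes that replicate mtDNA and transcribe, process and translate mitochondrial RNA gave medians from -0.02 to 0.14, beside -0.01 over all tested genes. The 12 genes of mitochondrial transcription, such as the polymerase gene Polrmt and the packaging factor gene Tfam, had a median log2 fold change of -0.01, and 6 of 12 were below 0. The 27 genes of RNA processing and decay had a median of 0.08, with 4 of 27 below 0, beside 51.0% of all tested genes. Medians were 0.14 for 13 genes of mtDNA replication (4 of 13 below 0), 0.05 for 22 genes of tRNA charging, -0.002 for 14 translation factors and -0.02 for 77 mitoribosomal genes. In each of these lists edgeR called 0 genes at an adjusted p under 0.05 in either direction. In each, 0 to 1 had an unadjusted edgeR p under 0.05 in a given direction, beside 2.28% higher and 3.58% lower of all tested genes.

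The gene with the smallest p in the processing list was Gtpbp3, an enzyme that modifies mitochondrial tRNA wobble bases, at 18.3, 18.6 and 21.02 CPM in PLEA, against 15.3, 15.7 and 13.5 CPM in saline. All PLEA libraries were higher, by 0.38 on the log2 scale (SE 0.14, edgeR adjusted p = 0.818). Its runner-up Ptcd1, which acts in the processing of mitochondrial RNA, was at 0.32 (SE 0.15), with overlapping groups. On the same scale the ribosome recycling factor gene Mrrf was at -0.39 (SE 0.17). The mitoribosomal gene Mrpl57 was at 0.38 (SE 0.15) and Mrpl14 at -0.42 (SE 0.20). None of these passed (edgeR adjusted p = 0.818 for each).

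Nuclear subunits of the same respiratory complexes lay slightly below 0, with 64 of 81 tested genes negative, a median of -0.12 and a range from -0.53 to 0.22. Of the 81, 7 did not overlap with lower levels in PLEA and 0 with higher levels, beside 5.54% and 5.16% of all genes. The complex IV subunit gene Cox7b had the smallest p, at 76.9, 63.2 and 65.1 CPM in PLEA, against 95.3, 82.1 and 82.7 CPM in saline (log2 fold change -0.34, SE 0.13, edgeR adjusted p = 0.818). Regulators of mitochondrial biogenesis had a median of -0.01 over 12 genes, stress response genes 0.01 over 16, and genes of fission, fusion and mitophagy -0.02 over 14. In the last list Fundc1, a mitophagy receptor, was at -0.47 (SE 0.18) and Bnip3l, another such receptor, at -0.30 (SE 0.14) (edgeR adjusted p = 0.818 for each). In both all PLEA libraries were lower, but for Bnip3l PLEA replicate 1 (131.47 CPM) was almost level with saline replicate 3 (131.53 CPM). Of the 14 genes, 2 did not overlap with lower levels in PLEA and 1 with higher levels, beside 5.54% and 5.16% of all genes. The serine synthesis gene Phgdh in the stress list was at -0.49 (SE 0.18, edgeR adjusted p = 0.818).

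**Figure D5:**
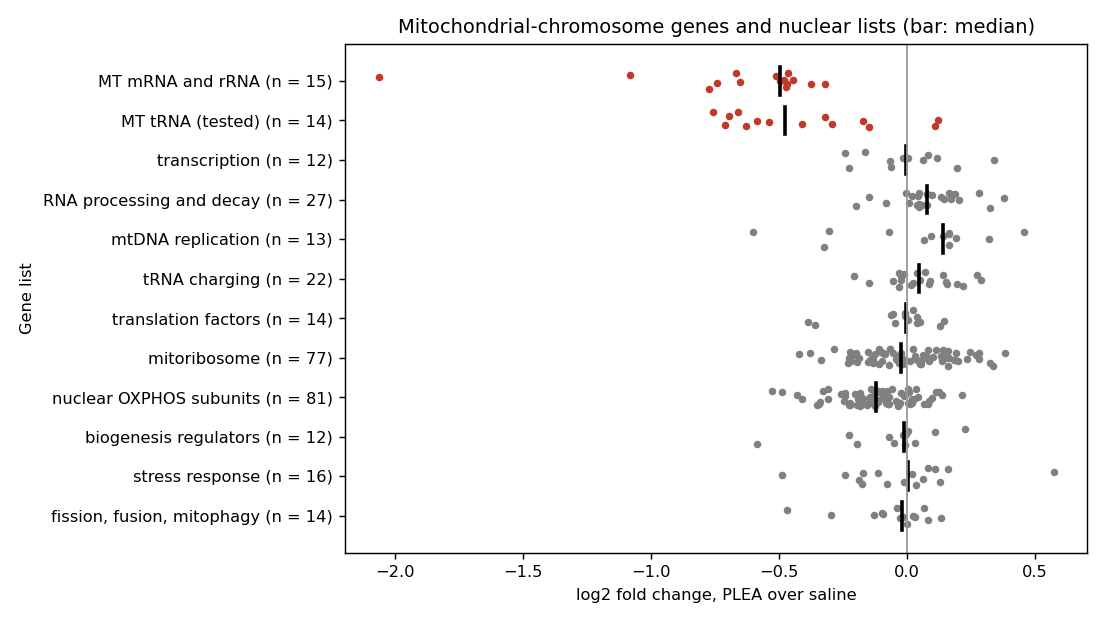
The log2 fold change, PLEA over saline, of each tested gene (points) in the mitochondrial chromosome's mRNA and rRNA genes, its tested tRNA genes and 10 lists of nuclear genes (the black bar is the median of each row, and n the number of genes). The medians of the first rows are -0.50 and -0.475, and those of the nuclear lists lie between -0.12 and 0.14.

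Markers of other cell types were measured in the same libraries. Astrocyte markers had log2 fold changes below 0 for 7 of 7 genes, with summed levels of 3321 to 4464 CPM in PLEA and 4077 to 6931 CPM in saline. Microglia markers were below 0 for 6 of 6 genes, with sums of 120.0 to 359.5 CPM in PLEA and 224.3 to 682.5 CPM in saline. Endothelial markers were below 0 for 5 of 6 genes, with sums of 184.2 to 244.7 CPM in PLEA and 222.8 to 344.2 CPM in saline. Saline replicate 1, the library with the largest mitochondrial share, was the highest for these 3 lists, and also for the excitatory neuron and meninges markers. All PLEA libraries were below all saline libraries for 2 of 7 astrocyte, 0 of 6 microglia and 3 of 6 endothelial markers, beside 5.54% of all tested genes. The same held for 7 of 8 meninges markers, with sums of 51.6 to 69.1 CPM in PLEA and 116.5 to 156.1 CPM in saline. DESeq2 called 7 of the 8 lower in PLEA, beside 0.238% of the genes to which it gave an adjusted p. Oligodendrocyte markers were below 0 for 6 of 6 genes, with sums of 2774 to 3684 CPM in PLEA and 3576 to 5428 CPM in saline. Inhibitory neuron markers summed to 1132 to 1475 CPM in PLEA and 777.5 to 1592 CPM in saline, and were below 0 for 3 of 6 genes. Blood markers stayed under 3.3 CPM in sum, and neutrophil and macrophage markers lay between 0.623 and 0.925 CPM in PLEA and between 1.45 and 17.9 CPM in saline. No marker list had a member at 0 counts in all libraries, and the part of any of these cells in the mitochondrial differences was not tested.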

How the data were processed

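Libraries of infarct mouse cortex were analysed, grouped by title into 3 PLEA and 3 saline. The authors deposited whole-number read counts per gene, which the values show to be without normalization. RNA was taken with an RNeasy kit and made into SMARTer mRNA libraries, per the labels' protocols. Which aligner, counter and strand setting were used is not given in the sources used here. Builds named in the submitters' processing notes are GRCm38 and mm10. Nuclear coordinates are printed as the table gives them, with no build attached, and all 37 mitochondrial genes had the same coordinates in GENCODE M21.

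The test was the quasi-likelihood test of edgeR 4.0.16 (R 4.3.3) after filterByExpr and TMM scaling, fitted by group alone. Its p-values were adjusted over 17584 genes (Benjamini-Hochberg). Standard errors are the log2 fold change over the square root of F. Shares and ratios were tested with two-sided exact permutation over libraries. Copies were searched with BLASTN 2.17.0. Alternatives were DESeq2 1.42.0, limma 3.58.1 voom, other scaling and filters, a replicate block and leaving out each library. In a simulation the code found 3% of the genes given a 1.5-fold difference. Recovery rose to 35.8% at 2-fold and 80.3% at 4-fold. There were 93 calls in that simulation, and 14 were false. Small differences were thus mostly missed, so a gene that did not pass need not be unchanged. No pair of libraries of a group agreed within sampling noise. All members, and of each list the 2 genes with the smallest p, were eligible to be named. The members and lists were chosen with earlier results of these data known.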

Additional observations from a re-analysis of the deposited data

How the results depend on the processing

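Mitochondrial genes called lower in PLEA numbered 0 with edgeR, against 2 with DESeq2, 1 without the filter on low counts and 0 to 1 when 1 library was left out (1 without saline replicate 1), and the cause was not tested. Genes called higher numbered 0 in every setting run. The median log2 fold change of tested mitochondrial genes was -0.50, and ran from -0.604 (without saline replicate 2) to -0.384 (without saline replicate 1) over all settings but the mitochondrial total as the scale, which gave -0.065 where the median of all genes was 0.394. The difference in mitochondrial share kept its direction in all settings and ran from -1.92 to -0.741 percentage points when 1 library was left out. The rRNA share of mitochondrial counts differed by -0.152 percentage points, and from -1.28 to 1.13 when 1 library was left out, so it had no stable direction. The log2 ratio of mt-Nd4l to mt-Nd4 differed by -2.00 to -1.17 when 1 library was left out and by -1.12 with Gm10222 added, and that of mt-Atp8 to mt-Atp6 by -1.18 to -0.191 when 1 library was left out. Leaving out 1 library turned the sign of 5 rare tRNA genes, whose log2 fold changes ran from -0.599 to 0.298 for mt-Tm, -0.245 to 0.84 for mt-Tl2, -0.505 to 0.365 for mt-Ta, -0.508 to 0.023 for mt-Ts2 and -0.343 to 0.12 for mt-Tg. Relative to the mitochondrial total, a setting chosen after seeing the data, signs turned for mt-Co1 (0.11), mt-Nd5 (0.037), mt-Te (0.031), mt-Ty (0.14), mt-Ts2 (0.11), mt-Tg (0.25) and mt-Tm (0.29). Adding the counts of the nuclear copies, also chosen after seeing the data, called 0 genes. With the replicate number as a block, edgeR called 0 mitochondrial genes, and the mean paired difference in mitochondrial share was -1.37 (exact sign-flip p of 0.5 over 3 pairs). The numbers were not taken to pair the libraries, because deviations of same-numbered libraries correlated at 0.386, 0.186 and -0.02. About 3 counts per library is the limit for the rarest tRNA genes.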
